A study of Mus musculus with 52 samples.

Results

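The genes of branched-chain amino acid breakdown were followed in the gastrocnemius, the large calf muscle, of aged mice. The 10 genes were picked by name and matched to the Ensembl identifiers of the count table: Bcat2, Bckdha, Bckdhb, Dbt, Dld, Bckdk, Ivd, Mccc1, Mccc2 and Auh. All 10 were found among 55487 genes, and all 10 were among the 16668 genes with enough counts to be tested. The matching rule uses no measured value, but the genes were chosen with earlier results of these data known.

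Leucine, isoleucine and valine are broken down largely outside the liver, and skeletal muscle is a main site of their first step. Bcat2, the mitochondrial aminotransferase, takes off the amino group. The branched-chain ketoacid dehydrogenase complex then commits the carbon skeleton to oxidation: Bckdha and Bckdhb encode its E1 alpha and beta subunits, Dbt its E2 core, and Dld the E3 subunit that it shares with the pyruvate and ketoglutarate dehydrogenases. Bckdk is the kinase that phosphorylates and switches off the complex. Past it, the leucine branch runs through Ivd (isovaleryl-CoA dehydrogenase), Mccc1 and Mccc2 (the 2 chains of methylcrotonyl-CoA carboxylase) and Auh (methylglutaconyl-CoA hydratase).

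RNA was sequenced from the muscle of male C57BL/6 mice aged 22 to 24 months, in 52 libraries that form 13 groups of 4. Metformin, a diabetes drug (M), leucine (L) or both (ML) were given in the drinking water, and controls drank water alone (W). Each drink was given to mice in hindlimb unloading (HU), in which the hind legs bear no weight, and to mice put back on their feet after it for 7 d (RL7) or 14 d (RL14). A thirteenth group of mice stayed ambulatory on water (AMB_W), so no ambulatory mice had M, L or ML. Group codes join load and drink, as in RL14_ML, and a number after the code is the replicate number of the label. The doses and the length of unloading are not given in the sources used here, and each library was taken as 1 mouse.

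Libraries held 15605044 to 32492548 counts, and the lowest count of any of the 10 genes in any library was 116, for Bcat2. Markers of skeletal muscle fibres were high in all 52 libraries (7 of 7 genes, summed level 67360 to 115900 CPM, counts scaled to library size). Transcripts of other tissues were uneven. Summed levels of 8 hepatocyte markers ran from 0 to 1141 CPM; the level of Alb exceeded 16 CPM in 12 libraries, and its median over all 52 was 0.348 CPM. Summed levels of 6 adipocyte markers reached 937.2 CPM in RL7_M 4, against a group mean of 110.5 CPM in RL7_W. RNA composition differed with the groups. The 5.8S ribosomal RNA gene averaged 0.771 to 4.99 CPM in the 4 RL7 groups and 0.718 CPM in RL14_W, against 4.76 to 19.8 CPM in the 4 HU groups and 11.3 CPM in AMB_W. It averaged 18.4 to 24.4 CPM in the 3 other RL14 groups, and the share of counts from mitochondrial DNA moved with it. These values are repeated beside the results they move with.

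On the GRCm38 build the genes lie, by GENCODE vM21, as follows: Bcat2 at chr7:45570153-45589711 (plus strand; ENSMUSG00000030826), Bckdha at chr7:25629946-25658981 (minus strand; ENSMUSG00000060376), Bckdhb at chr9:83925145-84124240 (plus strand; ENSMUSG00000032263), Dbt at chr3:116513070-116549981 (plus strand; ENSMUSG00000000340), Dld at chr12:31331277-31351453 (minus strand; ENSMUSG00000020664), Bckdk at chr7:127904082-127910221 (plus strand; ENSMUSG00000030802), Ivd at chr2:118861954-118882909 (plus strand; ENSMUSG00000027332), Mccc1 at chr3:35959312-36000678 (minus strand; ENSMUSG00000027709), Mccc2 at chr13:99948530-100015639 (minus strand; ENSMUSG00000021646) and Auh at chr13:52835119-52929681 (minus strand; ENSMUSG00000021460). All are protein-coding. Exons of Bcat2, Bckdha and Mccc1 overlap exons of other genes on the opposite strand, by 622 bases for Bcat2 (0610005C13Rik) and 1171 bases for Bckdha (B3gnt8). The overlaps of Mccc1 are 321 bases with B230207O21Rik, 198 with Mccc1os and 94 with Gm15952. Libraries were stranded, but the strand setting of the counting is not stated in these sources, and the values of these 3 genes may hold reads of their neighbours.

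Promoters are shown for 5 genes: Bcat2, Bckdha, Bckdk and Ivd, whose levels moved together from library to library, and Dld, whose level moved the other way from Bckdha and Bckdk. Each window is RefSeq sequence of GRCm38.p6, written 5′ to 3′ on the gene's strand. It runs from 250 bases before to 50 bases after the RefSeq start of the gene nearest to its GENCODE start. For Bckdha the starts differ: most of its window, chr7:25658712-25659011, lies inside the gene as placed by GENCODE (start at 25658981). Capitals mark matches to 5 short motifs, searched on both strands: the estrogen-related receptor motif TNAAGGTCA, the Sp1 motif GGGCGG, the NRF1 motif CGCANGCGC, the NF-Y motif CCAAT and the KLF motif CCACACCC.
Bcat2, chr7:45569903-45570202, plus strand: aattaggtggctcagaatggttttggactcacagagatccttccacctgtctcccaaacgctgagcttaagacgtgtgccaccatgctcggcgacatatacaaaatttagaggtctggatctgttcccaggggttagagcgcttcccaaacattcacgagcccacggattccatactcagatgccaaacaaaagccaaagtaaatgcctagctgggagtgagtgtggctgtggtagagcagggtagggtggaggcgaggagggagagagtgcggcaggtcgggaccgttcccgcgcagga
Bckdha, chr7:25658712-25659011, minus strand: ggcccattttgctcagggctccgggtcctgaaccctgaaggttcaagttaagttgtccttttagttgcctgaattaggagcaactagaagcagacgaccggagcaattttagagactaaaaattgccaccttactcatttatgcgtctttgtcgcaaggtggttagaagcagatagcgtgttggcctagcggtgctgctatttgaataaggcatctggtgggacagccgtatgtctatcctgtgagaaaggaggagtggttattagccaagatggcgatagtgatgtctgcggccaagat
Bckdk, chr7:127903823-127904122, plus strand: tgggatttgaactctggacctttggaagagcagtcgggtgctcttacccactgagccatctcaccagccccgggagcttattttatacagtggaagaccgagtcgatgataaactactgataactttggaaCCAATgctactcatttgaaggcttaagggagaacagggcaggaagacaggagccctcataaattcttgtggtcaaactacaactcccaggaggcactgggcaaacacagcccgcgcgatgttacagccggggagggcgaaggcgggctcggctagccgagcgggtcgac
Ivd, chr2:118861744-118862043, plus strand: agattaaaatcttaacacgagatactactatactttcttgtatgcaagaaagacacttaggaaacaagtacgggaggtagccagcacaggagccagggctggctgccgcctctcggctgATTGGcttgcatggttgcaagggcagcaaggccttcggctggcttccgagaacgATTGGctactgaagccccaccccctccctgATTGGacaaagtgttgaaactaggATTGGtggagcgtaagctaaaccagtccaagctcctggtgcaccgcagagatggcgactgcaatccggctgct
Dld, chr12:31351422-31351721, minus strand: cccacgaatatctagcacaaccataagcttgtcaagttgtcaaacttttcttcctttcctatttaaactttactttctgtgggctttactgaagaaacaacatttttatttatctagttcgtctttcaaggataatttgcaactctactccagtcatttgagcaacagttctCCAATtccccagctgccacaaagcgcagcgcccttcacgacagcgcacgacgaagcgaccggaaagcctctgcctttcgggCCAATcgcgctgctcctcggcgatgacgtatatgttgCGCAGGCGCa

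Ivd holds 4 CCAAT matches, all on the opposite strand as ATTGG; Bckdk holds 1; Dld holds 2 and also the 1 NRF1 match, at its end. The windows of Bcat2 and Bckdha hold no match to any of the 5 motifs. No match of 1 motif overlaps one of another in these 5 windows. Among 32851 promoter windows of the same length, 37.4% hold CCAAT, 35.7% the Sp1 motif, 6.3% the NRF1 motif, 3.6% the KLF motif and 1.3% the estrogen-related receptor motif. These are matches of letters, and no binding was measured.

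Per length of exon, Dld had by far the highest level of the 10, at 45.3 ± 10.6 RPKM (CPM per kilobase of exon; mean ± SD over 52 libraries). Bckdha at 15.4 ± 4.8 RPKM and Bckdk at 13.6 ± 3.33 RPKM followed and lay within each other's spread. Ivd stood at 9 ± 1.75 RPKM. The E2 gene Dbt (6.78 ± 1.33 RPKM), Mccc2 (6.17 ± 0.671 RPKM) and Bckdhb (5.77 ± 0.934 RPKM) were neighbours, each within an SD of the next, and Bcat2 was lower at 4.47 ± 1.18 RPKM. Auh (2.71 ± 0.256 RPKM) and Mccc1 (2.701 ± 0.348 RPKM) came last, but this order depends on the length used. Over the longest coding transcript in place of all exons, Mccc1 had 12.1 RPKM and Auh 8.04 RPKM, beside 14.7 RPKM for Bckdk and 8.37 RPKM for Bcat2. On either length the E1 alpha gene Bckdha was above its partner E1 beta gene Bckdhb, at 15.4 RPKM against 7.05 RPKM on the longest coding transcript. For Bckdha both lengths are 1899 bases, of which 1171 overlap B3gnt8 on the opposite strand, so its level may hold reads of that gene.

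Of the 10 genes, 8 differed somewhere among the 13 groups, the exceptions being Mccc2 and Auh (edgeR adjusted p under 0.05; 40% of all genes tested differed). With the 5.8S rRNA level added to the model 4 of 10 differed, and 14.5% of all genes. The group mean was lowest in HU_M for 7 genes, namely Bcat2, Bckdha, Bckdk, Dbt, Ivd, Mccc1 and Mccc2. The highest group mean was 2.01 times the lowest for Bckdha, 1.85 times for Bcat2 and 1.8 times for Bckdk, and 1.22 times for Auh.

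**Figure D1:**
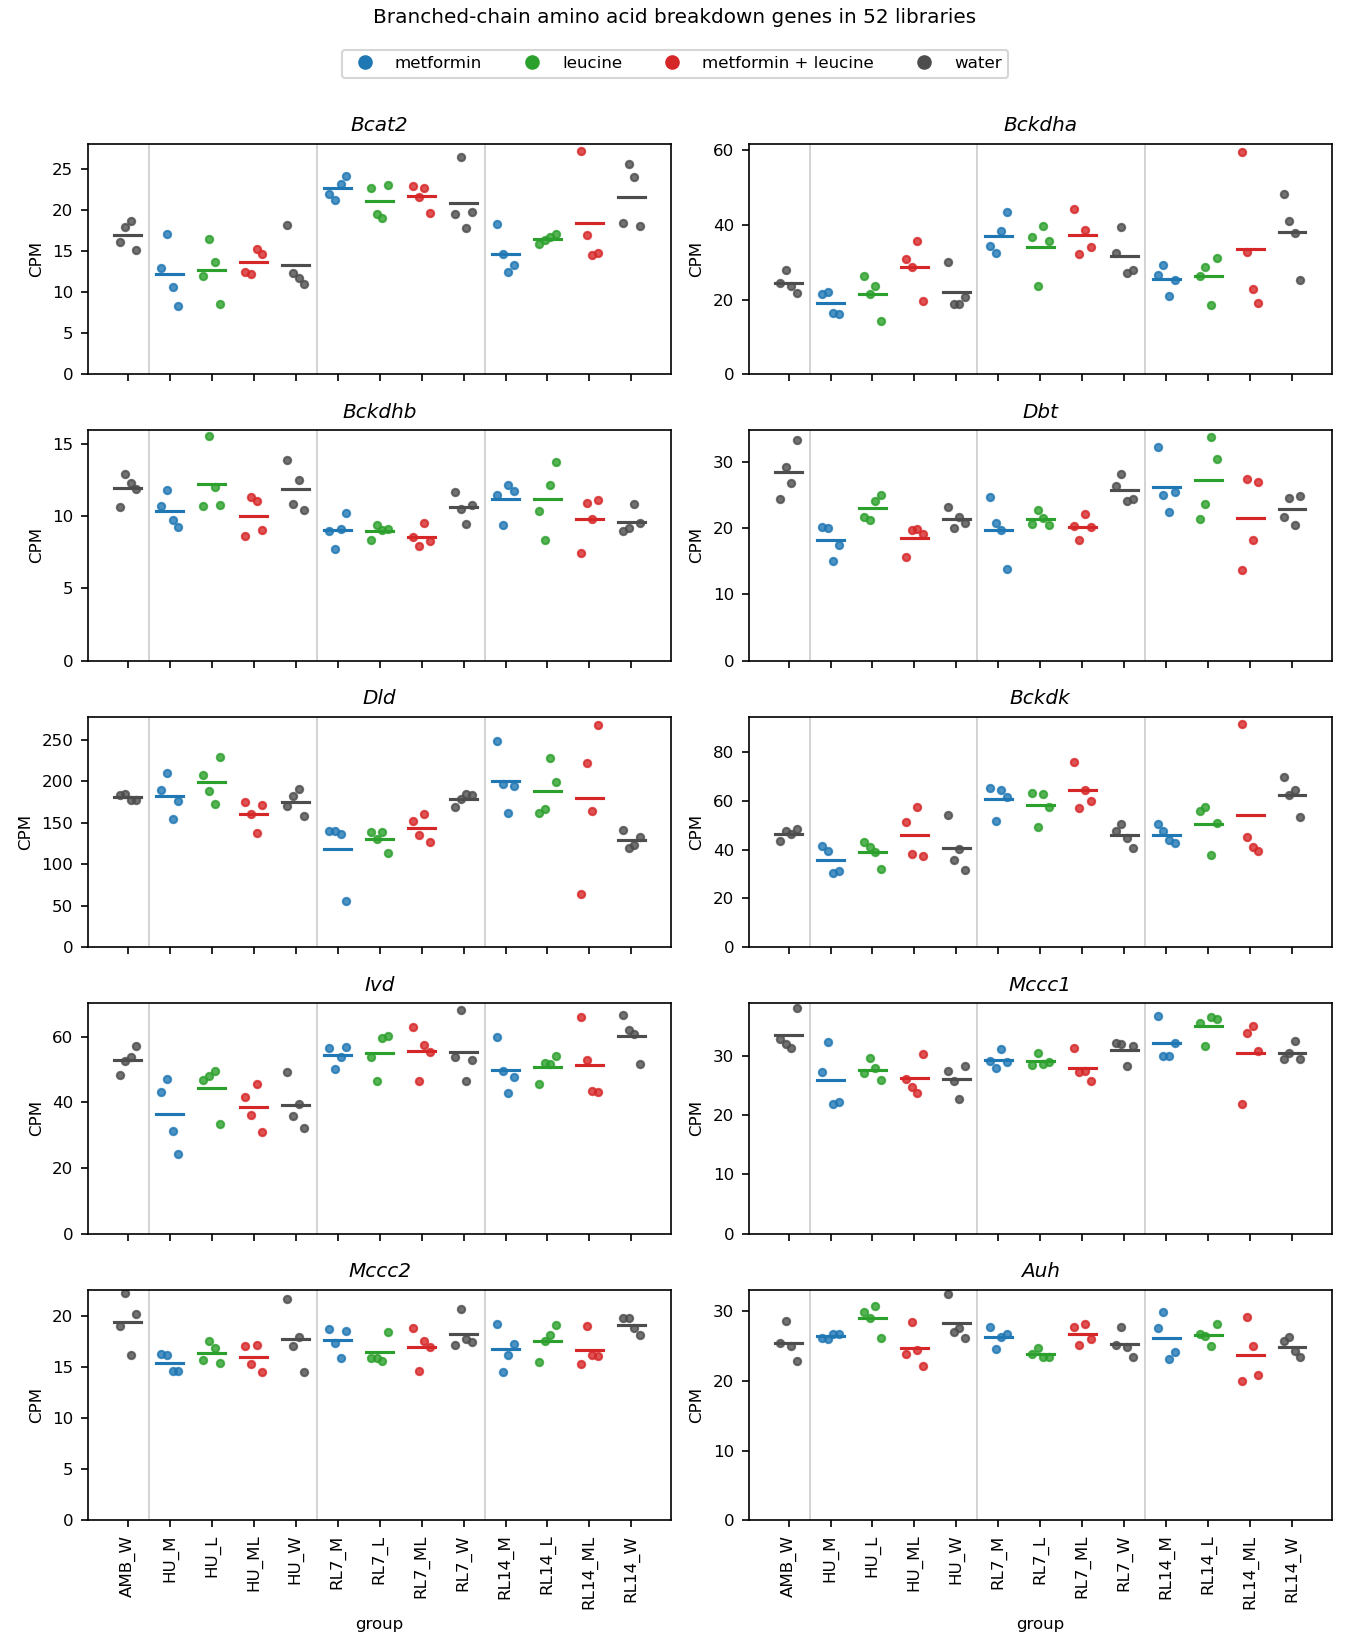
Level of each gene (CPM, linear axis from 0) in every library; points are libraries, horizontal bars are group means (n = 4), and colours give the drink. Bcat2 lies between 17.9 and 26.4 CPM in the 16 libraries at 7 d of reloading and between 8.35 and 18.2 CPM in the 16 unloaded ones, while Auh stays between 19.9 and 32.5 CPM throughout.

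The first question was what unloading did to the pathway. Over the 4 drinks, each weighted equally, 3 of the 10 genes were lower in unloaded muscle than in AMB_W: the E2 gene Dbt and the leucine-branch genes Ivd and Mccc1. None rose. Of all genes tested, 2.77% fell and 6.08% changed in either direction. The log2 fold change was below 0 for 9 of the 10, with a median of -0.23 against -0.01 over all genes tested. In bulk tissue, fewer cells of a type and less RNA per cell cannot be told apart.

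Dbt had 15.04 to 25.1 CPM in the 16 unloaded libraries (median 20.2), against 24.4, 29.2, 26.8 and 33.4 CPM in the 4 AMB_W libraries. Only the highest unloaded library, HU_L 5, reached the ambulatory range. Its log2 fold change was -0.49 ± 0.12 (SE, adjusted p = 0.00575). Ivd had 24.4 to 49.4 CPM in unloaded muscle (median 40.6), against 48.4, 52.5, 53.6 and 57.2 CPM in AMB_W. HU_W 1 and HU_L 3 reached the ambulatory range, and the log2 fold change was -0.42 ± 0.12 (adjusted p = 0.0251). Mccc1 had 21.8 to 32.2 CPM in unloaded muscle (median 26.6), against 32.9, 31.9, 31.3 and 38.1 CPM in AMB_W. Here HU_M 2 alone reached the ambulatory range, and the log2 fold change was -0.34 ± 0.09 (adjusted p = 0.00761). Bcat2 (-0.39 ± 0.14, adjusted p = 0.0881) and Mccc2 (-0.25 ± 0.08, adjusted p = 0.0658) had values below 0 that missed the threshold. Dld, the shared E3 subunit, gave -0.02 ± 0.17.

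AMB_W holds only 4 libraries: without AMB_W 5 none of the 10 genes passed, and Ivd also missed the threshold without AMB_W 3 or 4, without the 12 libraries with liver transcripts (-0.38, adjusted p = 0.0732) and in a fit of only the groups compared (adjusted p = 0.0611). The 5.8S rRNA gene averaged 11.4 CPM in unloaded libraries and 11.3 CPM in AMB_W. With its level in the model the values were -0.47 for Dbt, -0.43 for Ivd and -0.34 for Mccc1, all still past the threshold. On water alone, HU_W against AMB_W, 0 of 10 genes passed by edgeR (2.78% of all genes did), 3 had an unadjusted p under 0.05, and DESeq2 called 1 (3.38% of all genes) and voom 3 (8.17%). The estimates were -0.41 ± 0.15 for Dbt, -0.43 ± 0.16 for Ivd and -0.37 ± 0.11 for Mccc1 (adjusted p = 0.0593 for Mccc1, the lowest of the 10).

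The second question was what reloading did. After 14 d on the feet, over the 4 drinks, 6 of the 10 genes were higher than in unloaded muscle: the first enzyme Bcat2, the E1 alpha gene Bckdha, the kinase gene Bckdk, the E2 gene Dbt, and Ivd and Mccc1 of the leucine branch. None was lower. Of all genes tested, 16.4% rose and 29.7% changed. Summed levels of 4 endothelial markers also differed: group means were 178.8 to 207 CPM at RL14 and 183.7 to 202.1 CPM at RL7, against 132.7 to 155.9 CPM at HU, higher on each drink, and their part in the reloading results was not tested. The median log2 fold change of the 10 was 0.27, against 0.04 over all genes tested. Dbt, Ivd and Mccc1 had also fallen with unloading, but both comparisons use the unloaded libraries, so the 2 results share samples.

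Bcat2 had 12.5 to 27.2 CPM in the 16 RL14 libraries (median 16.8), against 8.35 to 18.2 CPM in the 16 HU libraries (median 12.4). The ranges overlapped, and the group mean was higher after reloading on each of the 4 drinks. Its log2 fold change was 0.44 ± 0.09 (adjusted p = 0.000207). Ivd had 42.7 to 66.7 CPM at RL14 (median 51.9), against 24.4 to 49.4 CPM at HU (median 40.6), with a log2 fold change of 0.42 ± 0.08 (adjusted p = 5.54e-05). For the kinase gene Bckdk the values were 37.8 to 91.6 CPM at RL14 (median 50.9), against 30.6 to 57.7 CPM at HU (median 39.2), and 0.40 ± 0.09 (adjusted p = 0.000498). The top value was in RL14_ML 1, whose 3 group mates had 39.4 to 45.2 CPM, and without RL14_ML 1 and 6 the log2 fold change was 0.32 (adjusted p = 0.000899).

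Bckdha had 18.4 to 59.5 CPM at RL14 (median 27.7), against 14.2 to 35.7 CPM at HU (median 21.5), with a log2 fold change of 0.43 ± 0.12 (adjusted p = 0.00449). Dbt had 13.7 to 33.8 CPM at RL14 (median 24.7), against 15.04 to 25.1 CPM at HU (median 20.2), and 0.27 ± 0.08 (adjusted p = 0.00641). Mccc1 rose by 0.27 ± 0.06 (adjusted p = 0.000174), with 21.9 to 36.6 CPM at RL14 (median 31.9) against 21.8 to 32.2 CPM at HU (median 26.6). The 4 others did not pass: Bckdhb gave -0.09 ± 0.07, Dld -0.06 ± 0.11, Mccc2 0.10 ± 0.05 and Auh -0.09 ± 0.05.

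The 5.8S rRNA gene averaged 15.7 CPM at RL14 and 11.4 CPM at HU, and the same 6 genes passed with its level in the model and with an offset for transcript GC content. RL14_W is the 1 group of its time with little 5.8S rRNA, at 0.718 CPM against 10.29 CPM in HU_W. RL14_M (18.43 CPM) and RL14_ML (24.42 CPM) were above HU_M (10.88 CPM) and HU_ML (4.756 CPM), and RL14_L (19.12 CPM) was near HU_L (19.78 CPM). These differences run opposite ways in the average over drinks, so the 5.8S covariate says little about composition there. Over M, L and ML alone, without the water groups, 5 of the 6 passed (21.7% of all genes changed), and Bckdha gave 0.32 (adjusted p = 0.0891). Without the 12 libraries with liver transcripts Dbt gave 0.22 (adjusted p = 0.103) and the other 5 passed.

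At 7 d of reloading 5 of the 10 genes rose over the 4 drinks and 2 fell, in a comparison in which 52.7% of all genes tested changed (29.2% rose and 23.5% fell). Bcat2 moved most: 17.9 to 26.4 CPM at RL7 (median 21.8), against 8.35 to 18.2 CPM at HU (median 12.4), a log2 fold change of 0.74 ± 0.09 (adjusted p = 7.25e-09). The highest unloaded library, HU_W 1, just exceeded the lowest reloaded one. Bckdha gave 0.63 ± 0.12 (adjusted p = 1.99e-05), Bckdk 0.50 ± 0.09 (adjusted p = 7.62e-06), Ivd 0.48 ± 0.08 (adjusted p = 2.44e-06) and Mccc1 0.15 ± 0.06 (adjusted p = 0.0196). Mccc1 missed the threshold in 12 of the 32 fits that left out 1 library (adjusted p up to 0.0764), and the other 4 passed in all 32. Bckdhb fell by 0.26 ± 0.07 (adjusted p = 0.00135) and Dld by 0.34 ± 0.11 (adjusted p = 0.00742) on the log2 scale.

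RNA composition moved with this comparison. The 5.8S rRNA gene averaged 2.1 CPM at RL7 and 11.4 CPM at HU, and mitochondrial DNA gave 9.8% of counts at RL7 and 15.2% at HU. Log2 fold changes correlated with transcript GC content across genes (r = 0.408 over 16642 genes, which are not independent replicates). With the 5.8S rRNA level in the model 0 of 10 genes passed, and 414 of all genes did, against 8788 without it. The estimates of the 4 genes that moved most came to 0.40 for Bcat2, 0.34 for Ivd, 0.33 for Bckdha and 0.27 for Bckdk, and that of Dld turned round to 0.05 (adjusted p = 0.95). Those of Bckdhb (-0.25, adjusted p = 0.43) and Mccc1 (0.20, adjusted p = 0.443) were near or above their size without it, though neither passed. Time and 5.8S level largely went together, at 0.379 to 7.39 CPM in RL7 libraries and 2.07 to 32.8 CPM in HU libraries. Their parts in the lost calls cannot be told apart. With GC offsets Bcat2 kept 0.55, Ivd 0.41, Bckdk 0.37 and Bckdha 0.30, all past the threshold, Dbt also rose (0.29, adjusted p = 0.000213), and Dld gave -0.14 (adjusted p = 0.173).

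RL7_W is the RL7 group nearest to its unloaded partner in composition, with 4.99 ± 2.22 CPM of 5.8S rRNA and 14.1% mitochondrial counts, against 10.3 ± 2.76 CPM and 15% in HU_W. In this pair 1 of 10 genes passed, Bcat2 (1.97% of all genes rose and 4.88% changed). Bcat2 had 19.6, 26.4, 17.9 and 19.8 CPM in RL7_W, against 18.2, 12.4, 11.8 and 11.01 CPM in HU_W. The sets overlap by 1 library, HU_W 1, and the log2 fold change was 0.65 ± 0.18 (adjusted p = 0.0259). It missed the threshold without any 1 of HU_W 2, 3 or 4 or RL7_W 2 (adjusted p up to 0.162) and with the 5.8S level in the model (0.49, adjusted p = 0.177). Ivd gave 0.50 ± 0.16 (adjusted p = 0.0526) and Dld 0.03 ± 0.22: on water Dld had 169 to 185 CPM in RL7_W, against 158 to 191 CPM in HU_W.

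RL14_W against HU_W called 4 genes, all higher: Bckdha at 0.78 ± 0.24 (adjusted p = 0.0301), Bcat2 at 0.69 ± 0.18 (adjusted p = 0.013), Bckdk at 0.62 ± 0.18 (adjusted p = 0.022) and Ivd at 0.62 ± 0.16 (adjusted p = 0.0103). Of all genes 5.5% rose and 9.72% changed. Composition moved here too, with 0.718 CPM of 5.8S rRNA in RL14_W and 10.3 CPM in HU_W. With that level in the model none of the 4 passed (30 genes did in all), and leaving out HU_W 2 also left 0 calls. Without HU_W 4 none of the 4 passed either. Of the other libraries, HU_W 3 ended the calls of Bcat2, Bckdha and Bckdk, RL14_W 1 those of Bckdha and Bckdk, RL14_W 3 those of Bcat2 and Bckdha, and RL14_W 4 those of Bcat2, Bckdha and Bckdk (adjusted p up to 0.065 for Bcat2, 0.125 for Bckdha, 0.0913 for Bckdk and 0.0536 for Ivd). With GC offsets Bckdha gave 0.41 (adjusted p = 0.0746), and fold changes correlated with GC content here at r = 0.369 across genes. Against the ambulatory controls, neither RL7_W nor RL14_W differed in any of the 10 genes by edgeR (0% and 0.174% of all genes changed); 0 and 5 genes had an unadjusted p under 0.05. The 5, led by Bckdha at 0.64 ± 0.23 (adjusted p = 0.155), came from RL14_W, where voom called 4 (17.8% of all genes) and DESeq2 0. RL14_W and RL7_W did not differ by edgeR in any of the 10 (0.036% of all genes did), with 2 unadjusted p under 0.05, 0 calls by DESeq2 and 2 by voom (7.94% of all genes). Over the 4 drinks Bcat2 was lower at RL14 than at RL7 by 0.29 ± 0.09 on the log2 scale (adjusted p = 0.0237; 6.13% of all genes fell and 13.5% changed), a call lost with the 5.8S level, with GC offsets, without the liver-transcript libraries, or without any 1 of RL7_W 2, RL14_W 5 or RL14_ML 4 (adjusted p up to 0.0579). Over M, L and ML alone 7 of the 10 genes differed, 4 higher and 3 lower at RL14, as did 28.4% of all genes.

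**Figure D2:**
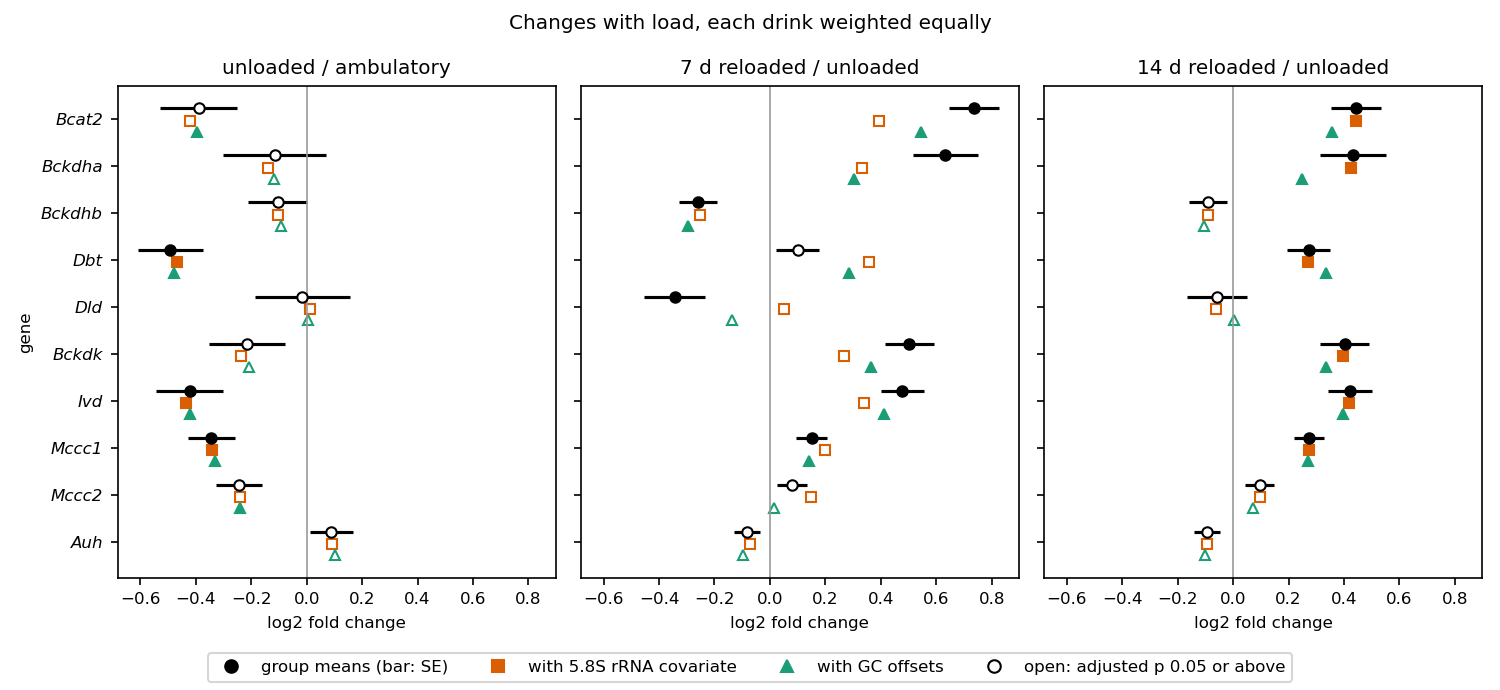
Log2 fold change of each gene with load, averaged over the 4 drinks: unloaded over ambulatory (left), 7 d reloaded over unloaded (middle) and 14 d reloaded over unloaded (right). Circles are the model of group means with its SE, squares the same with the 5.8S rRNA level as a covariate and triangles with GC offsets; filled symbols have an adjusted p under 0.05. Squares and circles nearly coincide on the left and right; in the middle no square is filled, and that of Dld lies at 0.05 where its circle lies at -0.34.

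The subunits of the ketoacid dehydrogenase complex did not move as a unit. With unloading, Dbt was the only 1 of the 4 subunit genes that passed, and the E1 pair gave -0.12 ± 0.18 (Bckdha) and -0.10 ± 0.11 (Bckdhb). At 14 d of reloading Bckdha (0.43) and Dbt (0.27) rose while Bckdhb (-0.09) and Dld (-0.06) did not pass. At 7 d Bckdha rose and Bckdhb fell, so the 2 chains of E1 went opposite ways; with GC offsets Bckdha gave 0.30 and Bckdhb -0.29, both past the threshold, and with the 5.8S level 0.33 and -0.25, neither past it (adjusted p = 0.563 and 0.43). Differences between subunits in 1 comparison were not tested as such. Over the 4 drinks the inhibitory kinase gene Bckdk rose at both times of reloading, as did Bckdha. At 7 d both calls were lost with the 5.8S level in the model (0.27 for Bckdk, adjusted p = 0.518). On water alone Bckdk averaged 45.9 ± 4.22 CPM in RL7_W and 40.5 ± 9.79 CPM in HU_W (SD), and it did not pass. Its opponent Ppm1k, the phosphatase that switches the complex on, was not among the 10. Over the 4 drinks it gave 0.38 ± 0.10 at RL14 against HU (adjusted p = 0.00301). Without the 12 libraries with liver transcripts the adjusted p was 0.0888. On water Ppm1k averaged 27.28 CPM in RL14_W and 27.77 CPM in HU_W, where Bckdk averaged 62.45 and 40.54 CPM. The treated RL14 groups averaged 34.82 to 37.78 CPM of Ppm1k.

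A wider list of 25 genes holds the rest of the pathway: the regulators Ppm1k and Klf15, the mitochondrial carrier Slc25a44, the later enzymes of the 3 branches, ketone use, and the makers of the cofactors biotin and lipoate. Of these 24 were tested, since Bcat1, the cytosolic aminotransferase, had 0.159 CPM on average. With unloading over the 4 drinks 1 of 24 rose and 3 fell, where 2.77% of all genes fell and 6.08% changed. The 1 was Klf15, a glucocorticoid-induced factor that is known to switch on Bcat2 in mouse muscle: 20.6 to 37.6 CPM in unloaded libraries (median 27.9), against 13.5 to 21.2 CPM in AMB_W (median 17.8), a log2 fold change of 0.76 ± 0.17 (adjusted p = 0.00212). Its rise held without any 1 library of this comparison, and HU_W alone gave 0.78 ± 0.20 (adjusted p = 0.0188), a call lost without AMB_W 2, AMB_W 5 or HU_W 1 (adjusted p up to 0.105) and without the 12 libraries with liver transcripts, 2 of them HU_W (0.67, adjusted p = 0.252). Oxct1, an enzyme of ketone body use, fell (-0.78 ± 0.18, adjusted p = 0.00399). It had 71.2 to 201.4 CPM in unloaded libraries, against 228.6 to 276.8 CPM in AMB_W, with no overlap. Pccb, a chain of propionyl-CoA carboxylase, fell by 0.27 ± 0.08 (adjusted p = 0.0248), and Lipt2, a lipoyl transferase, by 0.85 ± 0.27 (adjusted p = 0.0444). Pccb missed the threshold without AMB_W 2, 3 or 5, and Lipt2 in 14 of 20 fits that left out 1 library.

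At 14 d of reloading 8 of the 24 rose and 1 fell against unloaded muscle, over the 4 drinks, where 16.4% of all genes rose and 29.7% changed. The 1 was Klf15 (-0.48 ± 0.10, adjusted p = 0.000268). Oxct1 rose, with 139.2 to 306.2 CPM at RL14, against 71.2 to 201.4 CPM at HU (0.68 ± 0.12, adjusted p = 2.45e-05), and Btd, which recycles biotin for the carboxylases, gave 0.64 ± 0.12 (adjusted p = 0.000109). Pccb (0.28 ± 0.05) and Hibadh of the valine branch (0.23 ± 0.05) also rose, as did Ppm1k, Aldh6a1 and Lipt2. Aldh6a1 (0.13 ± 0.05, adjusted p = 0.046) missed the threshold in 21 of 32 fits that left out 1 library. Pooled over the drinks, Klf15 had its highest median where Bcat2 had its lowest. The medians of Klf15 at AMB, HU, RL7 and RL14 were 17.8, 27.9, 21.6 and 21.5 CPM. Those of Bcat2 were 17.1, 12.4, 21.8 and 16.8 CPM. On water Klf15 averaged 27.58 CPM in RL14_W and 30.22 CPM in HU_W, where Bcat2 averaged 21.56 and 13.35 CPM. The treated RL14 groups averaged 19.11 to 20.4 CPM of Klf15. At 7 d, where 52.7% of all genes changed, 10 of the 24 rose and 3 fell, a share near that background, Klf15 again among those that fell (-0.52 ± 0.10). With the 5.8S level in the model none of these 13 passed.

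The third question was what the drinks did. In the edgeR fit of all 52 libraries none of the 10 genes changed in any of the 9 comparisons of a drink with water, or between ML and either single agent. The share of all genes called with M, L and ML was 0%, 0.006% and 0.048% in HU, 0.138%, 0.078% and 0.006% at RL7 and 5.12%, 0.294% and 0.714% at RL14. Between ML and M it was 0.15%, 0% and 0.024% at HU, RL7 and RL14, and between ML and L 0.096%, 0% and 0%. Averaged over the 3 times, M, L and ML against W also gave 0 calls (0.048%, 0.072% and 0.036% of all genes), with 1, 1 and 3 genes at an unadjusted p under 0.05. In unloaded muscle every log2 fold change of the 10 genes lay between -0.25 and 0.38, and unadjusted p under 0.05 came up for 0 genes with M, 0 with L and 1 with ML (Auh, -0.19 ± 0.10). Leucine, which feeds the pathway, in unloaded muscle gave 0.03 ± 0.10 for Auh and 0.18 ± 0.16 for Ivd, and averaged over the 3 times -0.15 ± 0.10 for Bcat2 and -0.01 ± 0.10 for Bckdk (adjusted p = 0.999 for both). A p above the threshold does not show that the drinks left the genes as they were. Other edgeR fits did call some. With only the groups compared, 3 passed for RL14_M, 2 for RL7_ML and 1 for RL14_L against water (13.1%, 2.6% and 1.4% of all genes). Without RL14_ML 1 and 6, 3 passed for RL14_M (13.8%) and 1 each for RL7_M, RL14_L and RL14_ML (3.81%, 6.67% and 7.06%).

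At 14 d of reloading the drinks came closest to a call. Bcat2 had 18.3, 14.7, 12.5 and 13.3 CPM in RL14_M, against 18.5, 25.6, 24.1 and 18.1 CPM in RL14_W. The highest RL14_M library lay between the lower 2 of RL14_W, and the log2 fold change was -0.55 ± 0.18 (adjusted p = 0.0573). Dld had 248.7, 196.6, 161.2 and 194.8 CPM in RL14_M, against 141.2, 119.7, 123 and 132.6 CPM in RL14_W, without overlap (0.63 ± 0.22, adjusted p = 0.071). Of the 10 genes 4 had an unadjusted p under 0.05 here, 3 with leucine and 1 with both; DESeq2 called 2 with metformin (8.03% of all genes), and voom called 4, 1 and 5 with M, L and ML (23.4%, 8.07% and 18.1% of all genes). Composition differed between the same groups: 5.8S rRNA averaged 18.4, 19.1 and 24.4 CPM in RL14_M, RL14_L and RL14_ML, against 0.718 CPM in RL14_W, and mitochondrial DNA gave 22%, 19.5% and 20.4% of counts, against 9.97% in RL14_W. Summed levels of 7 slow-fibre markers averaged 1086, 931.2 and 771.2 CPM in RL14_M, RL14_L and RL14_ML, against 389.3 CPM in RL14_W, with wide spread (32.83 to 1977 CPM over all 52 libraries). The drink and these differences cannot be told apart in these groups. In the wider list, Slc25a44, the carrier that brings the amino acids into mitochondria, fell with metformin (-0.54 ± 0.14, adjusted p = 0.0234; -0.20 with the 5.8S level in the model). That call was lost without any 1 of RL14_W 3, RL14_W 4, RL14_M 1 or RL14_M 6 (adjusted p up to 0.13).

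At 7 d the kinase gene Bckdk had 65.4, 51.6, 64.6 and 61.8 CPM in RL7_M, 63.3, 49.2, 62.9 and 57.5 CPM in RL7_L and 76.0, 57.2, 64.7 and 59.9 CPM in RL7_ML, against 47.7, 50.6, 44.7 and 40.7 CPM in RL7_W. RL7_M and RL7_ML lay wholly above RL7_W, and RL7_L overlapped it by 1 library. The log2 fold changes were 0.41 ± 0.18, 0.34 ± 0.18 and 0.49 ± 0.18 (adjusted p = 0.304, 0.564 and 0.423). Dld was the mirror image, with 55.7 to 140 CPM in RL7_M, 113.8 to 139.4 CPM in RL7_L and 127 to 160 CPM in RL7_ML, against 168.6 to 184.7 CPM in RL7_W, without overlap. Its log2 fold changes of -0.60, -0.45 and -0.32 did not pass (adjusted p = 0.247, 0.55 and 0.646). The value for RL7_M includes 1 outlying library, RL7_M 4, at 55.67 CPM of Dld against 136.8 to 140.3 CPM in its group mates. Here too 5.8S rRNA differed, with 0.904, 0.771 and 1.76 CPM against 4.99 CPM in RL7_W. In group means Bckdk was higher and Dld lower under each drink than on water at 7 d, and Bckdk lower and Dld higher at 14 d, in both cases with Bckdk on the side with less 5.8S rRNA.

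Whether the drinks acted differently together or at different times was tested by interaction terms. None of the 10 genes passed in the 3 tests of metformin by leucine or the 6 tests of a drink's effect at RL7 or RL14 against that at HU. The nearest was metformin by leucine at RL14, where 3% of all genes passed, against 0% at HU and 0.102% at RL7. For the effects of M, L and ML at RL7 minus those at HU it was 0.03%, 0.066% and 0.012%, and at RL14 minus HU 0.024%, 0.006% and 0.96%. For metformin by leucine at RL14, 6 of the 10 genes had an unadjusted p under 0.05 and the lowest adjusted p was 0.0934, for Bckdha (0.93 ± 0.33). Without RL14_ML 6 that test called 4 of the 10, and 1918 of all genes against 500 with it.

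**Figure D3:**
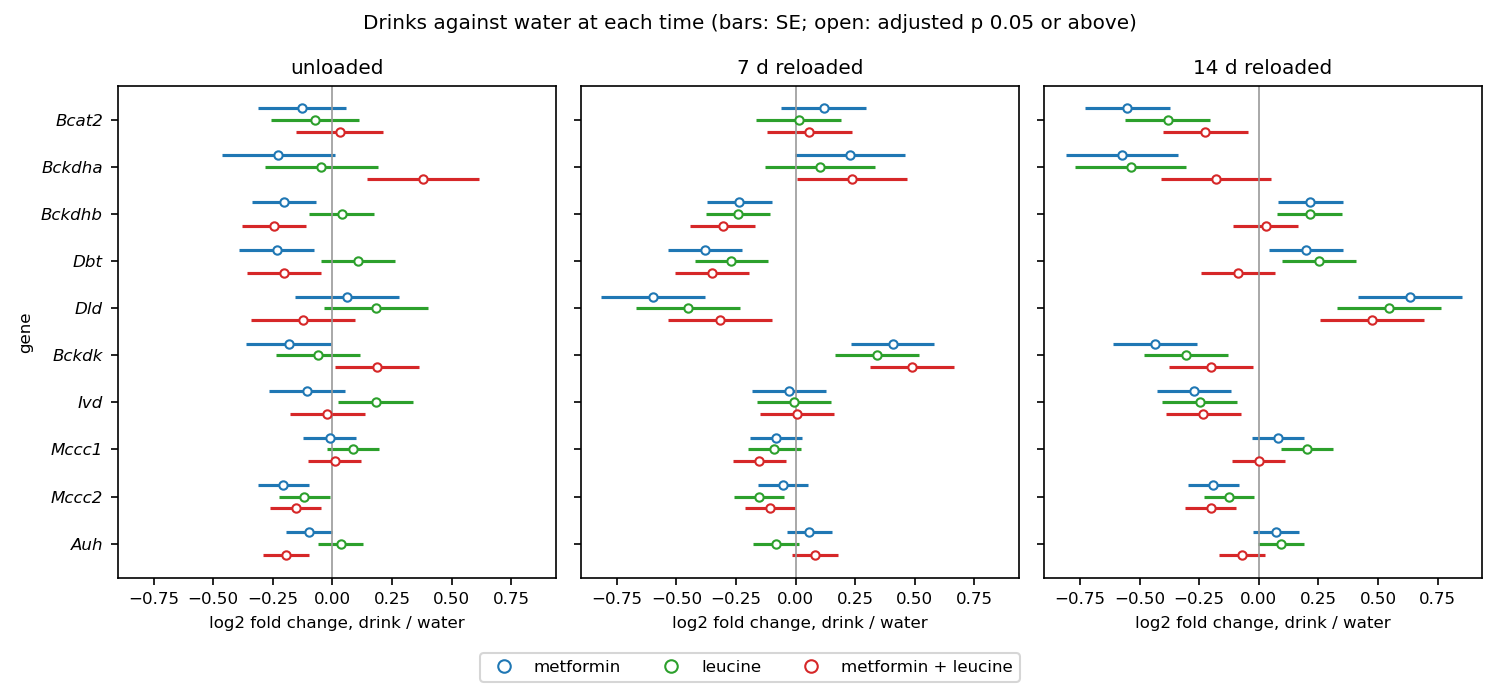
Log2 fold change of each gene, drink over water, in unloaded muscle and at 7 d and 14 d of reloading (bars: SE; colours: drink). No symbol is filled, since no adjusted p is under 0.05. Dld lies left of 0 at 7 d (-0.60 with metformin) and right of 0 at 14 d (0.63 with metformin), and Bckdk the other way. The -0.60 includes the outlying library RL7_M 4, at 55.67 CPM of Dld against 136.8 to 140.3 CPM in its group mates.

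Between libraries of 1 group, 6 of the 10 genes varied in 2 sets. With group means removed, the levels of Bckdha and Bckdk correlated at r = 0.86 over the 52 libraries, Bcat2 and Ivd at 0.783, Bckdha and Ivd at 0.77, Bckdk and Ivd at 0.752, Bcat2 and Bckdk at 0.651 and Bcat2 and Bckdha at 0.643. These are the 4 genes that rose most with reloading. Dbt and Dld formed the other pair, at 0.768, and Dld ran against Bckdha (-0.468) and Bckdk (-0.46). The correlations describe these libraries, which share depth and composition effects, and carry no test. The sets also differ in base composition: transcript GC content is 57.9% for Bckdha, 54.3% for Bcat2, 52.7% for Bckdk and 51% for Ivd, and 42.1% for Dbt and 40.6% for Dld. Mccc2 at 51% and Bckdhb at 50.3% are close to Ivd in GC content but followed it less closely, at 0.59 for Mccc2 and 0.24 for Bckdhb. These 2 genes, Mccc1 and Auh belonged to neither set: Mccc1, for example, stood at 0.484 with Dld and 0.152 with Ivd.

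**Figure D4:**
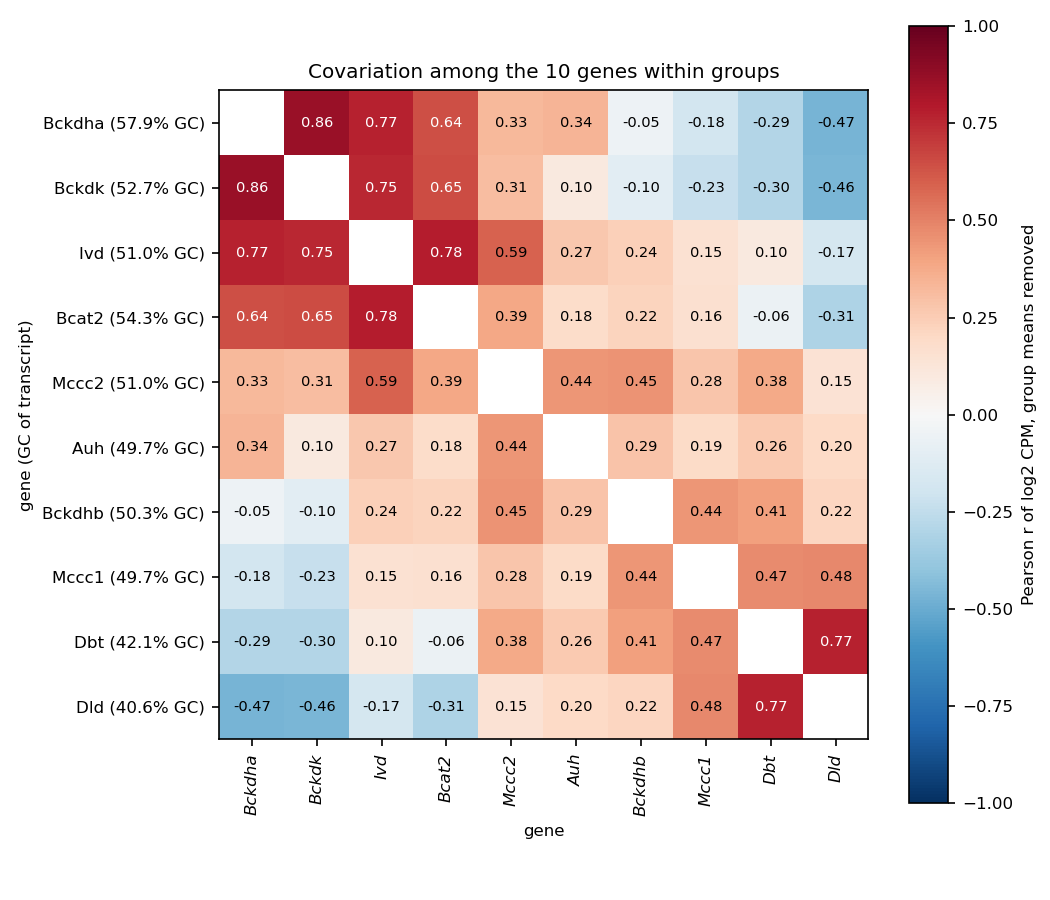
Pearson correlation of log2 CPM between each pair of the 10 genes over 52 libraries with group means removed; red is positive and blue negative, and row labels give transcript GC content. The block at the upper left holds Bckdha, Bckdk, Ivd and Bcat2 (0.64 to 0.86), the lower right corner Dbt and Dld (0.77), and Dld is negative with Bckdha (-0.47) and Bckdk (-0.46).

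By the level of 5.8S rRNA, the libraries spread over a range from 0.294 to 33 CPM. Dld had its lowest group means where that level was low, at 118 CPM in RL7_M and 129 CPM in RL14_W. Its highest were in RL14_M at 200 CPM and HU_L at 199 CPM. The RL7_M mean of Dld includes RL7_M 4 at 55.67 CPM, against 136.8 to 140.3 CPM in its group mates. Ivd had its highest group mean, 60.3 CPM, in RL14_W, where 5.8S rRNA was lowest, against 49.9 to 51.3 CPM in the 3 treated RL14 groups. In the 16 unloaded libraries, with 2.07 to 32.8 CPM of 5.8S rRNA, Ivd had 24.4 to 49.4 CPM, and in the treated RL14 libraries, with 9.15 to 33 CPM of 5.8S rRNA, it had 42.7 to 65.9 CPM. The 2 ranges of Ivd overlap. What part the RNA composition has in the levels was not tested beyond the models with the 5.8S level and with GC offsets.

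**Figure D5:**
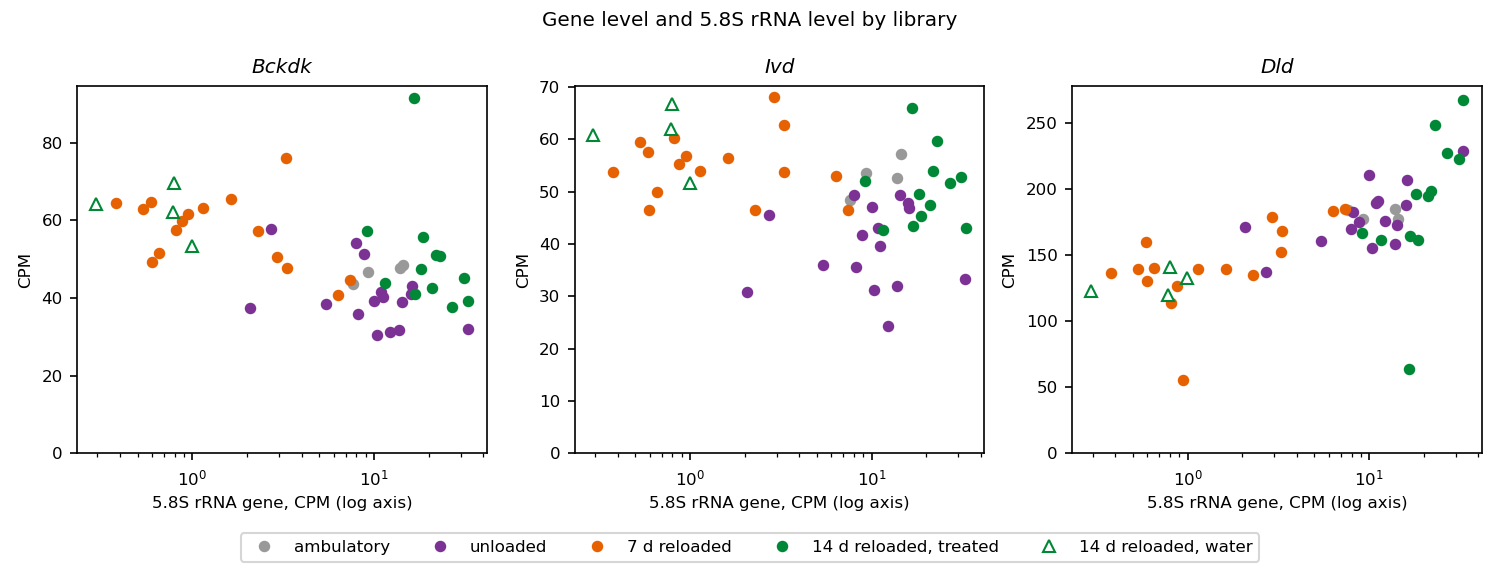
Level of Bckdk, Ivd and Dld (CPM, from 0) against the level of the 5.8S rRNA gene (CPM, log axis) in each of 52 libraries, coloured by load; open triangles are RL14_W. The RL14_W and most RL7 libraries sit at the low end of the 5.8S axis, and Ivd spans 24.4 to 49.4 CPM in unloaded libraries and 42.7 to 65.9 CPM in treated RL14 libraries, 2 ranges that overlap.

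Genes outside both lists were ranked by how closely they followed the mean standardised level of the 10. Over the 52 libraries, among 11030 genes, Phyh, which begins the breakdown of branched fatty acids (r = 0.827), Nipsnap2, a mitochondrial matrix protein (0.822), D10Jhu81e (0.787), Mdh1, the cytosolic malate dehydrogenase (0.778), Adhfe1 (0.775), Cox7a1, a respiratory chain subunit of heart and muscle (0.774), Ptgr2 (0.771) and Suclg1, a citric acid cycle enzyme (0.764) came first. With group means removed Nipsnap2 (0.818), Phyh (0.807) and Sdha, a subunit of succinate dehydrogenase (0.772), led. Nuclear genes of the respiratory chain (a list of 19) summed to 4145 ± 578 CPM at RL14 and 3734 ± 485 CPM at HU (SD, n = 16 each).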

How the data were processed

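Total RNA was sequenced from the gastrocnemius in 52 libraries, with stranded libraries after removal of ribosomal RNA, per the labels. The authors deposited raw counts per Ensembl gene with no normalization; per the submitters' processing notes the build was GRCm38 and the tools were STAR 2.7.3a, featureCounts 1.6.3 and DESeq2 1.30.0. The annotation release of the counting is not given in the sources used here. Of 55487 identifiers, 55227 matched GENCODE vM21. Totals ran from 15605044 to 32492548 counts. The p-values rest on the spread between libraries within groups, estimated over the 13 groups together. SDs cover the 4 libraries of a group or, where stated, 16 or 52 libraries, and the latter include differences between groups. No 2 replicates were alike within sampling noise (78 pairs, lowest chi-square per degree of freedom 6.82).

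Counts were fitted with edgeR 4.0.16 in R 4.3.3: filterByExpr with a minimum count of 10, TMM factors and robust quasi-likelihood tests on 13 group means (39 residual degrees of freedom). Benjamini-Hochberg adjustment ran over all 16668 genes, and an adjusted p under 0.05 is a call. In all, 38 contrasts were tested. CPM use TMM-scaled totals; correlations use log2 CPM with a prior count of 2; SEs come from the F statistic. Averages over drinks weight each group equally.

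Alternatives were RLE factors, no filter, DESeq2 1.42.0, voom with quality weights (limma 3.58.1), only the groups compared, a replicate block, the 5.8S rRNA level as covariate, and leaving out single libraries, the 12 with Alb above 16 CPM, or RL14_ML 1 and 6. Offsets for GC content, leaving out RL7_M 4, and averages without water were added after seeing the data. The steps were also run on simulated counts, drawn without differences in RNA composition between groups, so that run does not bear on those differences. The members and lists were chosen with earlier results of these data known. All 10 members, any called gene of the wider list, and the 8 genes most like the members' mean (average log2 CPM of at least 1) could be named; other genes named are markers. Promoter windows are from RefSeq (GRCm38.p6). A gene of the wider list is not reported here by name.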

Additional observations from a re-analysis of the deposited data

Results flagged for a closer look

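In 5 of the 130 sets of 4 libraries (10 genes in 13 groups), 1 library stood so far from the other 3 that its gap to the nearest exceeded Dixon's 95% limit for the share of the whole range, which chance gives in about 1 of 20 such sets. Bckdk was at 91.57 CPM in RL14_ML 1, against 39.4 to 45.2 CPM in the other 3. Dld was at 55.67 CPM in RL7_M 4, against 136.8 to 140.3 CPM; the same library had the highest summed adipocyte markers of all, at 937.2 CPM. Ivd was at 33.27 CPM in HU_L 5, against 46.9 to 49.4 CPM; 5.8S rRNA there was 32.8 CPM and Alb 69.6 CPM. Mccc1 was at 28.28 CPM in RL7_W 3, against 31.6 to 32.1 CPM, and Mccc2 at 18.43 CPM in RL7_L 5, against 15.6 to 15.9 CPM. The part of these accompanying values in the outlying levels was not tested.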

How the results depend on the processing

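Counts of the 10 genes called are given under each setting that moved them by over 1.5 times; the cause was not tested. With the 5.8S level in the model the count was 0 for RL7_W against HU_W (1 in the edgeR model of all groups), RL14_W against HU_W (4), RL7 against HU over drinks (7) and RL14 against RL7 over drinks (1), and 4 for any difference among groups (8; 5 with no filter on low counts). Of all genes, 2.64%, 0.18%, 2.48%, 0% and 14.5% were called with the 5.8S level, in that order, and 34.1% with no filter. These and the shares below are percentages of 16668 genes. The signs of 2 estimates turned round with the 5.8S level: Dld, RL7 against HU, to 0.051 and Bcat2, RL14 against RL7, to 0.0468. Without RL14_ML 1 and 6 the counts were 1 for HU_W against AMB_W (0), 2 for RL14_W against AMB_W (0) and RL7_W against HU_W, 1 for RL7_M, RL14_L and RL14_ML and 3 for RL14_M against water (0 each), 5 for HU against AMB_W over drinks (3) and for RL14 against RL7, and 1 for the ML effect at RL14 minus HU (0). The shares of all genes were 3.68%, 8.45%, 8.13%, 3.81%, 6.67%, 7.06%, 13.8%, 8.65%, 24.5% and 8.72%, in that order. With only the groups compared the counts were 3 for HU_W and RL14_W against AMB_W, 2 for RL7_W against HU_W, RL14_W against RL7_W (0) and RL7_ML, 3 for RL14_M and 1 for RL14_L against water, and 1 for the L effect at RL7 minus HU (0). The shares of all genes were 6.3%, 12.2%, 12.2%, 2.34%, 2.6%, 13.1%, 1.4% and 0.228%, in that order. Voom gave 3 and 4 for HU_W and RL14_W against AMB_W, 4 for RL7_W against HU_W, 2 for RL14_W against RL7_W, 1 for RL7_ML, 4 for RL14_M, 1 for RL14_L and 5 for RL14_ML against water, 5 for HU against AMB_W, 6 for RL14 against RL7 and 4 for the ML effect at RL14 minus HU. Over all genes voom called 8.17%, 17.8%, 16.5%, 7.94%, 3.83%, 23.4%, 8.07%, 18.1%, 15.6%, 28.5% and 18.5%, in that order. DESeq2 gave 1 for HU_W against AMB_W and 2 for RL7_W against HU_W, RL14_M against water and RL14 against RL7. Its shares of all genes were 3.38%, 6.9%, 8.03% and 16.5%. GC offsets gave 2 for RL7_W against HU_W, 5 for HU against AMB_W and 0 for RL14 against RL7, which had 0 without liver-transcript libraries, 2 without RL7_M 4 and 7 over M, L and ML alone. The shares of all genes were 6.2%, 8.45% and 10.1% with GC offsets. For RL14 against RL7 they were 3.28%, 12% and 28.4% under the other settings, in that order. RL14_M against water, which compares other groups, had 1 call in the model without RL7_M 4 (5.04% of all genes).

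Leaving out 1 library at a time, the count ran from 0 to 2 for RL7_W against HU_W, 0 to 4 for RL14_W against HU_W, 0 to 1 for RL14_M and 0 to 2 for RL14_ML against water, 0 to 5 for HU against AMB_W, 6 to 7 for RL7 and for RL14 against HU, 0 to 7 for RL14 against RL7, 0 to 4 for metformin by leucine at RL14, 0 to 3 for the ML effect at RL14 minus HU and 8 to 9 among all groups; it was 0 for every other comparison. All genes called also moved. In the first fit to reach each highest count they were 796, 1524, 955, 2500, 1012, 8832, 4896, 5049, 1918, 2531 and 7117, in that order. RL14 against HU over drinks stayed within 1.5 times of its 6 calls under every alternative run. Replicate numbers did not pair the samples: same-numbered libraries correlated at a median of 0.013 over 219 pairs, and 11 of 52 correlated best with their own number. With the replicate block RL7_W against HU_W had 2 calls (5.14% of all genes).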
